A study of Saccharomyces cerevisiae with 22 samples.

Results

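Hydrogen peroxide and high salt were each given to growing budding yeast, and the comparison here sets the transcriptome in peroxide against that in salt at the same times. It uses 4 of the 22 arrays of the study, chosen by their labels: cells that met 0.66 mM H2O2 with no earlier stress, at 30 and 45 min, and cells in 0.8 M KCl at 30 and 45 min. The 2 arrays of untreated cells serve as the zero level, and with 2 arrays of cells heated to 40 °C, for 30 and 45 min, they add to the estimate of the spread. The cells were Saccharomyces cerevisiae of the strain labelled 4741, grown in YPD (a rich medium) at 30 °C to mid-log phase. By the labels the peroxide and KCl cells share these conditions and differ in the agent added. The untreated cells share them too but are labelled 0 min, so against them agent and elapsed time cannot be told apart. The heat arrays, used only for the spread, also differ in temperature. Each agent and time has 1 array, and the labels do not say whether the arrays came from separate cultures. The spread within a stress is therefore the change between 30 and 45 min plus noise, and p-values speak only of the spread between the arrays used, which may be technical.

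Yeast senses peroxide through the peroxidase Hyr1 and the transcription factor Yap1. Yap1 acts on genes for peroxiredoxins, thioredoxin, glutathione enzymes and the supply of NADPH, on some of them together with Skn7. High salt draws water from the cell and activates the mitogen-activated kinase Hog1, which raises the synthesis and uptake of glycerol as a balancing solute. Both stresses also release Msn2 and Msn4, the factors of the general stress response, and both slow growth, during which genes for making ribosomes are turned down.

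Values are deposited log2 expression levels, differences are peroxide minus KCl on the log2 scale with the limma standard error, and 2 arrays stand in each group. Array medians over the 5449 genes measured lay between 10.18 and 10.22, and a background of 4.66 was exceeded by 97.4% to 99.0% of them. Between the untreated arrays the standard deviation across genes was 0.142, against 0.325 between 30 and 45 min in peroxide and 0.468 in KCl. Of the mating type markers, STE2, the receptor for alpha factor on a cells, read between 12.50 and 13.33 on the 6 arrays. The alpha-factor gene MF(ALPHA)1 was below background on all of them. The other markers of alpha cells were above background on the 6 arrays. SAG1 read between 8.4 and 8.8, STE3 between 6.1 and 7.1, and MF(ALPHA)2 between 5.1 and 7.4. The marker genes LEU2, URA3 and MET17 were also below background on the 6 arrays, while HIS3 read between 11.26 and 12.25. For RNA integrity, probe sets at the ends of the ACT1 transcript differed by 0.40 to 0.68 (3′ minus 5′), but the same measure in SRB4 moved with the groups, at 2.47 and 2.64 in peroxide, 1.81 and 1.42 in KCl, and 2.38 and 2.26 in untreated cells. Its part in the results was not tested, and in bulk RNA fewer cells expressing a gene and less RNA per cell cannot be told apart.

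The 2 stresses gave widely different transcriptomes. Of 5449 genes, 1024 were higher in peroxide (18.8%) and 1282 were lower (23.5%), 42.3% in all, at a limma adjusted p under 0.05. In each of these 2306 genes both peroxide arrays lay on the same side of both KCl arrays; that was so upward in 33.1% and downward in 37.7% of all genes. The counts for gene groups below are to be read against these shares of all genes. Without the peroxide array at 45 min the counts were 576 higher and 826 lower, and without that at 30 min they were 659 and 861. Differences of at least 2-fold were seen in 464 of the higher genes and 563 of the lower ones, and of at least 8-fold in 21 and 42. The peroxide and KCl arrays at 30 min differed at least 2-fold in 509 genes upward and 653 downward, and at 45 min in 593 and 579. Across genes the difference at 30 min and the difference at 45 min had r = 0.801, as a description of these 4 arrays; genes are not independent replicates, and neighbouring time points share a treatment.

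**Figure D1:**
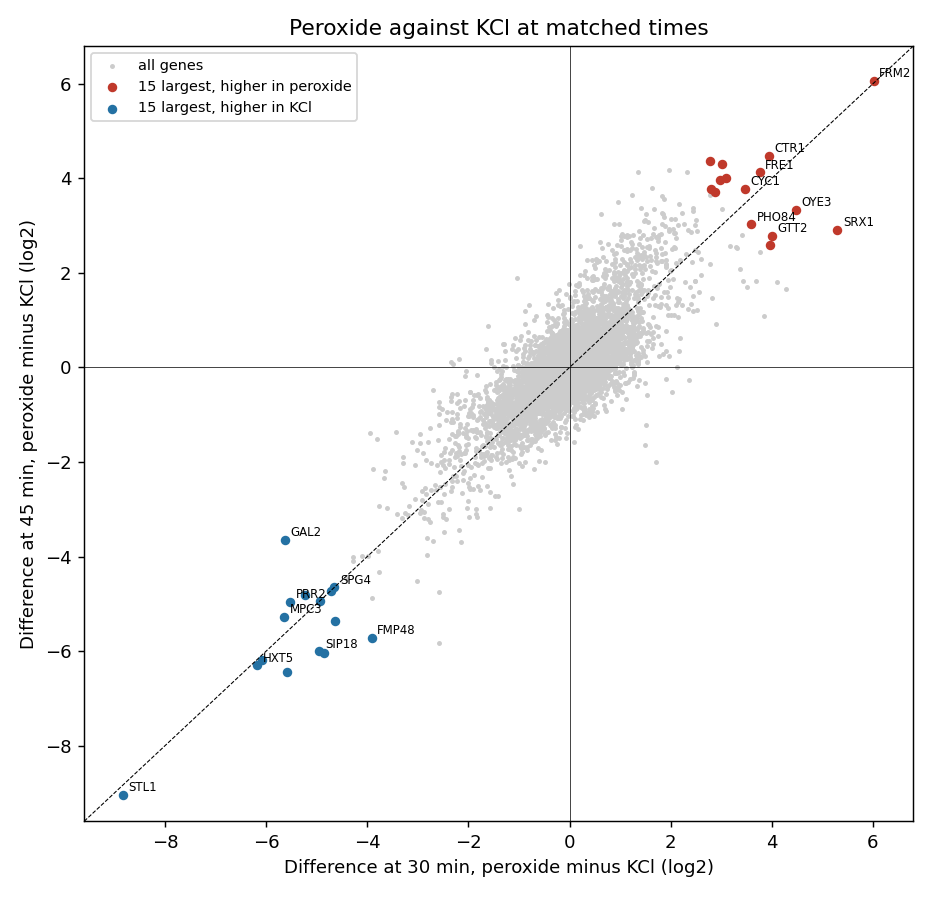
Each point is a gene, with the difference between peroxide and KCl (log2) at 30 min on the x axis and at 45 min on the y axis; the dashed line marks equal differences. Red points are the 15 genes with the largest differences upward in peroxide and blue points the 15 with the largest differences downward; a name is printed where there is room. FRM2 lies at 6.02 and 6.07, STL1 at -8.83 and -9.04, and SRX1 below the line at 5.30 and 2.91.

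Set against untreated cells, the difference lay mostly on the KCl side. Of the 1024 genes higher in peroxide, 57 had both peroxide arrays more than 2-fold above the untreated mean, while 457 had both KCl arrays more than 2-fold below it. Of the 1282 genes lower in peroxide, 14 had both peroxide arrays more than 2-fold below the untreated mean, while 600 had both KCl arrays more than 2-fold above it. Over all genes, 4676 and 4960 were within 2-fold of the untreated mean in peroxide at 30 and 45 min, against 3831 and 3747 in KCl. Counts against the untreated mean are descriptions with no test.

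The 15 genes with the largest differences in each direction show the same asymmetry. On the high side, 5 of the 15 had both peroxide arrays more than 2-fold above the untreated mean: the nitroreductase gene FRM2, the sulfiredoxin gene SRX1, the old yellow enzyme gene OYE3, the glutathione transferase gene GTT2 and the drug exporter gene FLR1. The other 10 had both KCl arrays more than 2-fold below it: the copper transporter gene CTR1, the metal reductase gene FRE1, the cytochrome c gene CYC1, the phosphate genes PHO84 and PHM6, and NSR1, SYO1, NOG1, RRS1 and RRP5, which act in ribosome assembly. On the low side, all 15 had both KCl arrays more than 2-fold above the untreated mean, and 9 of them had both peroxide arrays within 2-fold of it. These 30 were picked as the largest called differences on these same arrays, so further runs on them are no independent support. Of the 30, 28 also passed a test for a difference of over 2-fold.

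**Figure D2:**
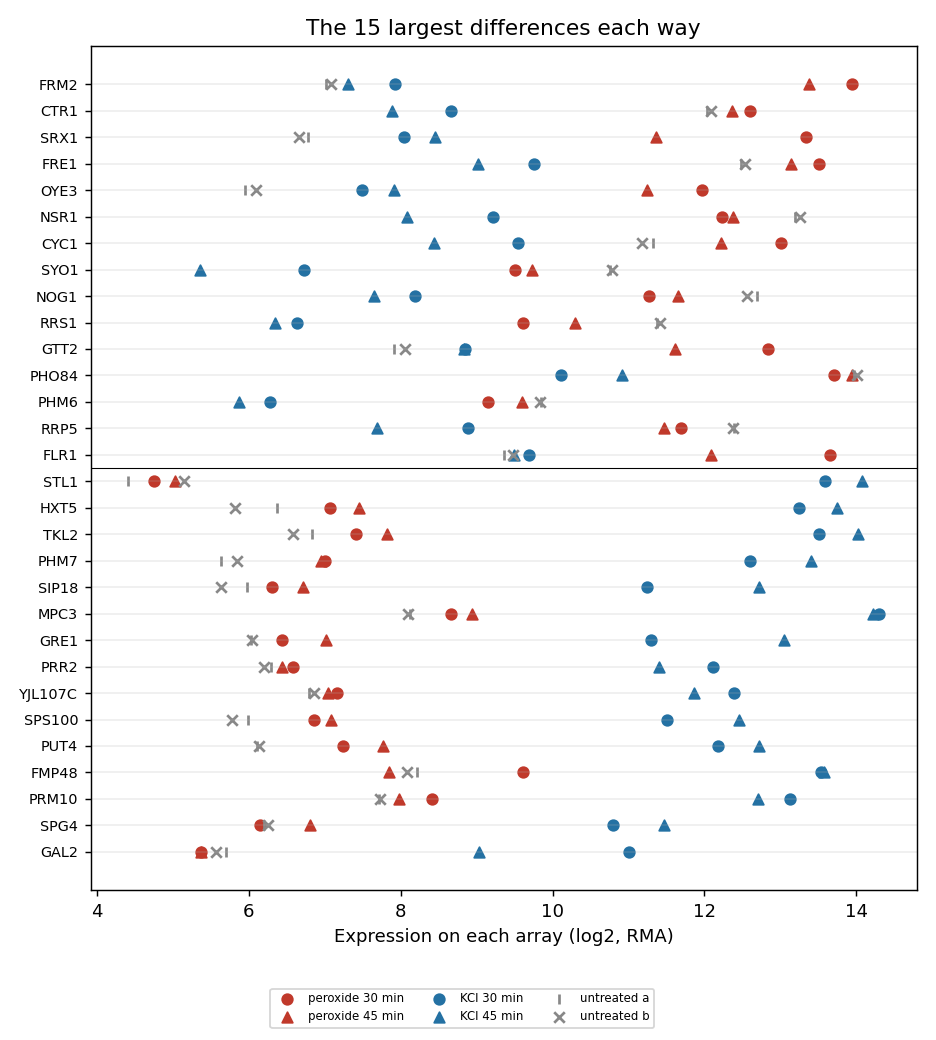
Log2 expression of the 30 genes on each array: peroxide in red, KCl in blue, untreated cells in grey; circles are 30 min and triangles 45 min. The upper 15 genes are higher in peroxide and the lower 15 are lower; for STL1 the peroxide arrays read 4.75 and 5.03, against 13.58 and 14.07 in KCl.

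Among the enzymes that remove peroxide, a few genes differed strongly and many did not pass the test. Of 13 genes for peroxiredoxins, thioredoxins and their partners, 5 were higher in peroxide (38.5%), 1 was lower and 7 did not pass; the median difference was 0.42, against -0.03 over all genes. SRX1, the sulfiredoxin that restores overoxidised peroxiredoxins, read 13.34 and 11.36 at 30 and 45 min in peroxide, against 8.04 and 8.45 in KCl and 6.79 and 6.66 in untreated cells. It was 17.2-fold higher in peroxide (4.10 ± 0.55, adjusted p = 0.00179), with a lower level at 45 than at 30 min in peroxide. The inducible peroxiredoxin gene TSA2 read 13.73 and 13.69 in peroxide, against 9.97 and 11.24 in KCl and 7.83 and 7.93 in untreated cells, a difference of 3.11 ± 0.37 (adjusted p = 0.00117). Both stresses thus lay above the untreated level for SRX1 and TSA2, peroxide by more.

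The thioredoxin reductase gene TRR1 separated the stresses in another way. It read 14.48 and 14.37 in peroxide, against 12.54 and 12.51 in KCl and 13.38 and 13.24 in untreated cells, so that peroxide lay above the untreated arrays and KCl below them (1.90 ± 0.13, adjusted p = 0.000222). MXR1, which repairs oxidised methionine, was 2.51-fold higher in peroxide (1.33 ± 0.21, adjusted p = 0.00321). Smaller differences were measured for the thioredoxin gene TRX2 (0.48 ± 0.13, adjusted p = 0.0232) and, downward, for the mitochondrial thioredoxin reductase gene TRR2 (-0.54 ± 0.16, adjusted p = 0.0295). TRX2 did not pass without either untreated array, either peroxide array or KCl at 30 min (adjusted p = 0.0585 to 0.0931), nor TRR2 without either untreated array, either peroxide array or KCl at 45 min (0.0667 to 0.132). The main cytosolic peroxiredoxin gene TSA1 differed by 0.24 ± 0.12 (adjusted p = 0.161) and AHP1, for another peroxiredoxin, by 0.42 ± 0.15 (adjusted p = 0.0552). The genes of the regulators did not pass: YAP1 differed by 0.39 ± 0.20 (adjusted p = 0.160) and SKN7 by 0.21 ± 0.13 (adjusted p = 0.226).

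Of 23 glutathione genes, 8 were higher in peroxide (34.8%, against 18.8% of all genes), 4 were lower (17.4%, against 23.5%) and 11 did not pass, with a median difference of 0.28. GTT2, a glutathione transferase, read 12.84 and 11.61 in peroxide, against 8.84 and 8.83 in KCl and 7.91 and 8.06 in untreated cells (3.39 ± 0.34, adjusted p = 0.000813). The glutathione peroxidase gene GPX2 read 13.73 and 13.36 in peroxide, against 10.33 and 10.55 in KCl and 11.74 and 11.57 in untreated cells (3.10 ± 0.17, adjusted p = 0.000115). As with TRR1, its KCl arrays lay below the untreated ones. ECM4, an omega-class transferase, was 4.24-fold higher in peroxide, ECM38, which breaks down glutathione, 3.12-fold, and YCF1, the vacuolar pump for glutathione conjugates, 2.85-fold. GSH1, the first enzyme of glutathione synthesis, read 12.67 and 11.59 in peroxide, against 10.49 and 10.98 in KCl (1.40 ± 0.33, adjusted p = 0.0137, and 0.0643 without KCl at 30 min). The paralogue of GPX2 ran the other way: GPX1 read 9.51 and 9.31 in peroxide, against 10.57 and 10.77 in KCl and 7.69 and 7.77 in untreated cells (-1.26 ± 0.29, adjusted p = 0.0128). Its adjusted p was 0.0703 without peroxide at 45 min and 0.0530 without KCl at 45 min. HYR1, the peroxidase that senses peroxide for Yap1, differed by 0.35 ± 0.16 (adjusted p = 0.124), and the Golgi glutaredoxin gene GRX7 was 2.32-fold lower in peroxide. Without peroxide at 30 min, 2 genes of this group were lower in place of 4.

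Of 6 genes for catalases, superoxide dismutases and related enzymes, 2 were higher in peroxide, 1 was lower and 3 did not pass. Only 1 was higher without either untreated array, KCl at 30 min or peroxide at 30 min. The cytosolic catalase gene CTT1 was lower in peroxide than in salt, with 11.36 and 8.60 in peroxide, against 13.94 and 14.43 in KCl and 7.44 and 7.56 in untreated cells. It was 18.4-fold lower (-4.20 ± 0.83, adjusted p = 0.00677), and the gap was wider at 45 than at 30 min. Its level at 45 min was lower in peroxide, though still above untreated cells, and higher in KCl. The peroxisomal catalase gene CTA1 read 9.69 and 7.59 in peroxide, against 8.16 and 8.18 in KCl, and its groups overlapped (0.47 ± 0.57, adjusted p = 0.541). CCS1, the copper chaperone of superoxide dismutase, was 2.44-fold higher in peroxide (1.29 ± 0.26, adjusted p = 0.00765). The mitochondrial dismutase gene SOD2 differed by 0.72 ± 0.23 (adjusted p = 0.0369, and 0.0512 to 0.186 without either untreated array, either peroxide array or KCl at 30 min), and the cytosolic SOD1 by 0.27 ± 0.13 (adjusted p = 0.129).

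In the pentose phosphate pathway, which makes NADPH for these enzymes, 5 of 17 genes were higher in peroxide and 5 were lower, 29.4% each against 18.8% and 23.5% of all genes. Genes are given below by isoenzyme pairs, a pairing made after the values were seen. For the transketolases, TKL1 read 13.61 and 13.61 in peroxide, against 12.81 and 12.99 in KCl and 13.74 and 13.64 in untreated cells, while TKL2 read 7.41 and 7.82, against 13.51 and 14.02 in KCl and 6.83 and 6.58 in untreated cells. TKL1 was thus 1.64-fold higher (0.71 ± 0.13, adjusted p = 0.00526) and TKL2 70.8-fold lower in peroxide (-6.15 ± 0.55, adjusted p = 0.000553). For the phosphogluconate dehydrogenases, GND1 was 2.27-fold higher (1.18 ± 0.14, adjusted p = 0.00121) and GND2 8.96-fold lower (-3.16 ± 0.33, adjusted p = 0.000827). GND2 read 9.18 and 9.75 in peroxide, against 12.38 and 12.88 in KCl and 7.69 and 7.81 in untreated cells.

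The lactonase gene SOL3 differed by 0.83 ± 0.17 (adjusted p = 0.00772, and 0.0518 without peroxide at 45 min) and its paralogue SOL4 by -1.75 ± 0.34 (adjusted p = 0.00608). The transaldolase gene TAL1 differed by 0.34 ± 0.18 (adjusted p = 0.166), and its paralogue NQM1 by -3.99 ± 0.28 (adjusted p = 0.000222). In NQM1 the peroxide arrays read 9.50 and 10.01, against 13.50 and 13.99 in KCl and 7.32 and 7.67 in untreated cells. ZWF1, the glucose-6-phosphate dehydrogenase that opens the pathway and has no paralogue, read 13.74 and 13.48 in peroxide, against 12.45 and 12.80 in KCl and 11.97 and 12.09 in untreated cells (0.98 ± 0.22, adjusted p = 0.0115, and 0.0675 without peroxide at 30 min). The isomerase gene RKI1 differed by 2.01 ± 0.68 (adjusted p = 0.0488), a call lost without either untreated array, either peroxide array or KCl at 45 min (0.0731 to 0.215). IDP2, another cytosolic source of NADPH, was 2.55-fold lower in peroxide. Without either of the peroxide arrays, 3 genes of this pathway were higher in place of 5.

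**Figure D3:**
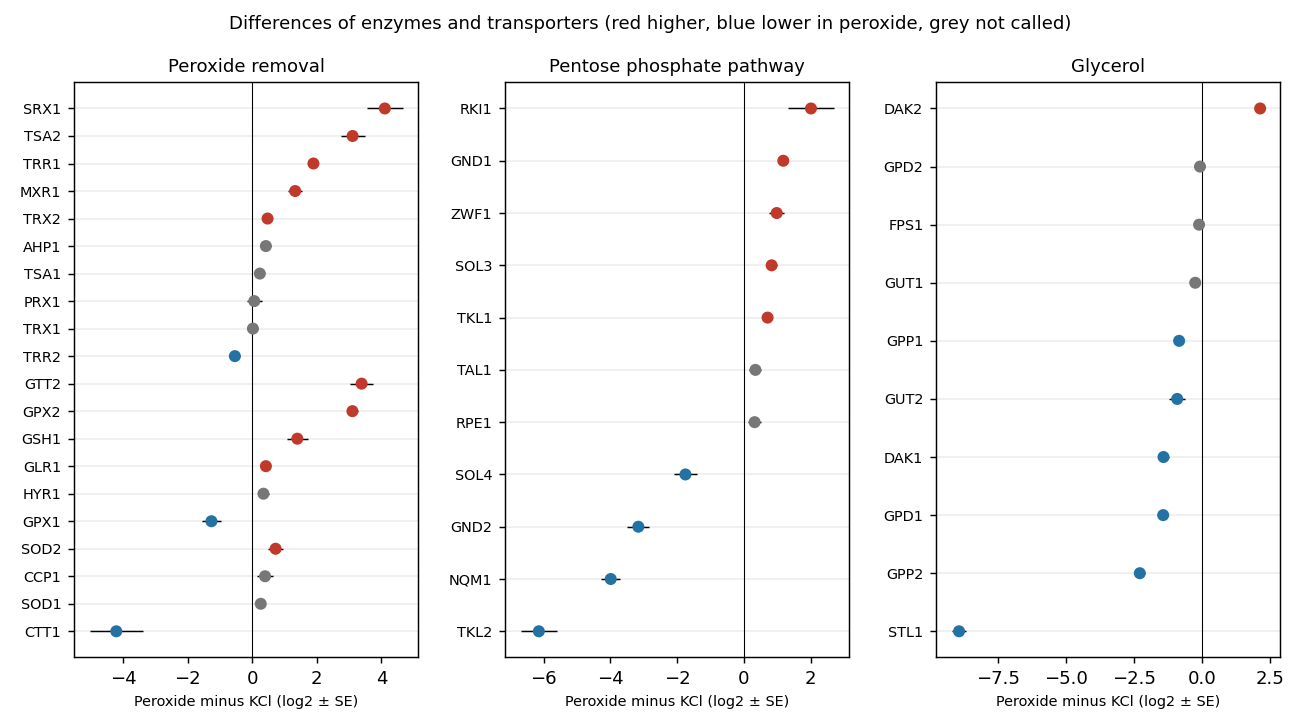
Differences between peroxide and KCl (log2, points) with limma standard errors (bars) for genes of peroxide removal, the pentose phosphate pathway and glycerol metabolism. Red genes were higher and blue genes lower in peroxide, and grey genes did not pass; SRX1 stands at 4.10, CTT1 at -4.20, TKL1 at 0.71 and TKL2 at -6.15, on axes of different range.

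Oxidoreductases with broad substrates included the gene with the largest difference upward in peroxide. Of 14 genes for aryl alcohol dehydrogenases, old yellow enzymes, nitroreductases and related enzymes, 9 were higher in peroxide (64.3%) and 0 lower by limma, with a median difference of 1.03. FRM2, of the nitroreductase family, read 13.95 and 13.38 in peroxide, against 7.93 and 7.31 in KCl and 7.02 and 7.08 in untreated cells. The difference was 65.9-fold (6.04 ± 0.25, adjusted p = 3.62e-05), with KCl close to the untreated arrays. HBN1, its paralogue, read 13.79 and 13.33 in peroxide, against 10.51 and 10.78 in KCl and 8.90 and 8.86 in untreated cells (2.92 ± 0.18, adjusted p = 0.000144). OYE3 read 11.97 and 11.25 in peroxide, against 7.49 and 7.91 in KCl and 5.95 and 6.09 in untreated cells (3.91 ± 0.25, adjusted p = 0.000145), and OYE2, of the same enzyme family, was 1.96-fold higher. AAD6 was 6.62-fold and AAD4 7.29-fold higher in peroxide; the probe set for AAD4 can also match related genes.

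Of 17 drug and polyamine exporter genes, 2 were higher in peroxide (11.8%, below the 18.8% of all genes) and 5 lower (29.4%, near the 23.5% of all genes). Without KCl at 45 min 4 were higher, and without peroxide at 30 min 3 were lower. FLR1, a multidrug exporter known as a Yap1 target, read 13.65 and 12.09 in peroxide, against 9.69 and 9.49 in KCl and 9.36 and 9.47 in untreated cells (3.28 ± 0.43, adjusted p = 0.00159). ATR1, of the same transporter class, was 3.66-fold higher. The polyamine exporter genes TPO4 and TPO1 were 5.56-fold and 3.43-fold lower in peroxide and the ABC transporter gene PDR15 4.14-fold lower. TPO1 read 11.16 and 11.15 in peroxide, against 13.02 and 12.86 in KCl and 11.94 and 12.04 in untreated cells, so that the stresses lay on opposite sides of the untreated level.

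Genes linked to iron, for uptake and other roles, were mostly higher in peroxide than in KCl. Of 30 such genes, 17 were higher (56.7%), 2 were lower (6.67%) and 11 did not pass, with a median difference of 0.99. The median was 1.49 at 30 min and 0.42 at 45 min, and without peroxide at 30 min 10 genes were higher. FRE1, the surface reductase for iron and copper, read 13.51 and 13.14 in peroxide, against 9.75 and 9.01 in KCl and 12.48 and 12.53 in untreated cells (3.94 ± 0.25, adjusted p = 0.000144). The siderophore transporter genes ARN1, ARN2 and ENB1 were 6.19-fold, 5.59-fold and 5.07-fold higher, and FIT2, for a cell wall protein that holds siderophores, 4.11-fold. ENB1 read 12.58 and 12.62 in peroxide, against 10.29 and 10.23 in KCl, close to the 10.43 and 10.57 of untreated cells. LSO1, a small gene induced when iron is scarce, read 9.97 and 10.18 in peroxide, against 5.87 and 8.37 in KCl and 4.99 and 4.72 in untreated cells (2.96 ± 0.76, adjusted p = 0.0178, and 0.0666 and 0.0822 without the peroxide arrays at 30 and 45 min).

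Not every iron gene followed. FRE4, a reductase for siderophore iron, read 7.11 and 7.00 in peroxide, against 10.88 and 9.94 in KCl and 7.57 and 7.61 in untreated cells, which was 10.2-fold lower in peroxide (-3.35 ± 0.28, adjusted p = 0.000408). FIT1 was 2.40-fold lower. The ferroxidase gene FET3 differed by 0.45 ± 0.30 (adjusted p = 0.260) and AFT1, for the iron regulator, by 0.02 ± 0.20 (adjusted p = 0.944). CTR1, the high-affinity copper transporter gene, read 12.60 and 12.36 in peroxide, against 8.66 and 7.89 in KCl and 12.04 and 12.08 in untreated cells, 18.4-fold higher in peroxide (4.21 ± 0.30, adjusted p = 0.000230). In CTR1 and FRE1 the gap came mainly from KCl arrays below the untreated level.

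Of 32 genes of sulfur and methionine metabolism, 15 were higher in peroxide (46.9%) and 1 lower, with a median difference of 0.64. The higher count fell most without peroxide at 30 min or KCl at 45 min, and the lower count rose without peroxide at 30 min. MHT1, which makes methionine from S-methylmethionine, was 5.01-fold higher (2.32 ± 0.17, adjusted p = 0.000278). STR3, a cystathionine lyase gene, read 10.39 and 7.77 in peroxide, against 6.54 and 6.69 in KCl and 7.94 and 7.84 in untreated cells. It passed at an adjusted p of 0.0262, and not without KCl at 30 min (0.0884) or at 45 min (0.0763). The exception was MET13, a methylenetetrahydrofolate reductase gene, with 9.01 and 8.13 in peroxide, against 11.14 and 10.79 in KCl and 8.81 and 9.12 in untreated cells (-2.39 ± 0.30, adjusted p = 0.00141).

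Glycerol metabolism included the gene with the largest difference downward in peroxide relative to KCl. STL1, the symporter that brings glycerol into the cell, read 4.75 and 5.03 in peroxide, against 13.58 and 14.07 in KCl and 4.42 and 5.14 in untreated cells. It was 490-fold lower in peroxide (-8.94 ± 0.27, adjusted p = 1.70e-05), and its peroxide arrays were just above the background of 4.66. Of 16 glycerol genes, 6 were lower in peroxide (37.5%, against 23.5% of all genes) and 1 higher (3 without KCl at 45 min), with a median difference of -0.33. GPD1, the glycerol-3-phosphate dehydrogenase of osmotic stress, read 13.01 and 12.87 in peroxide, against 14.35 and 14.36 in KCl and 11.42 and 11.51 in untreated cells (-1.42 ± 0.19, adjusted p = 0.00174). Both stresses lay above the untreated level for GPD1, whereas GPP2, the glycerol phosphatase of osmotic stress, read 12.04 and 12.60 in peroxide, against 14.59 and 14.61 in KCl and 12.12 and 11.99 in untreated cells (-2.28 ± 0.20, adjusted p = 0.000512).

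The paralogues in this pathway differed from each other as well. GPD2 differed by -0.06 ± 0.16 (adjusted p = 0.768), and GPP1 by -0.83 ± 0.12 (adjusted p = 0.00239). Of the dihydroxyacetone kinases, DAK1 was 2.65-fold lower in peroxide and DAK2 was 4.44-fold higher. DAK2 read 8.12 and 7.70 in peroxide, against 5.64 and 5.88 in KCl and 5.62 and 5.62 in untreated cells (2.15 ± 0.17, adjusted p = 0.000356). The glycerol channel gene FPS1 differed by -0.10 ± 0.14 (adjusted p = 0.602).

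Genes of the Hog1 pathway itself were called in both directions. Of 26 genes for sensors, kinases, phosphatases and factors of the pathway, 10 were lower in peroxide (38.5%, against 23.5% of all genes) and 3 higher (11.5%, against 18.8%). Without peroxide at 45 min 3 were lower and 1 higher, and without that at 30 min 4 and 1. Without KCl at 30 min 1 was higher, and without that at 45 min 5 were. HOG1 differed by -0.23 ± 0.14 (adjusted p = 0.223). RCK1, a kinase gene, read 6.18 and 6.05 in peroxide, against 9.07 and 7.85 in KCl and 6.41 and 6.37 in untreated cells (-2.35 ± 0.34, adjusted p = 0.00232). PTC2, one of the phosphatases that switch Hog1 off, read 11.76 and 11.40 in peroxide, against 9.35 and 10.05 in KCl and 11.56 and 11.47 in untreated cells (1.88 ± 0.24, adjusted p = 0.00152). ENA5, a sodium pump gene whose probe set can match its neighbouring copies, was 4.08-fold lower in peroxide (-2.03 ± 0.15, adjusted p = 0.000263).

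Of 20 genes taken as downstream effectors of osmotic stress, 19 were lower in peroxide, with a median difference of -3.10. That list, like all lists here, was chosen with results of these arrays known, so its count and theirs are no independent evidence of direction. Relative to the untreated mean its medians were 1.09 and 1.23 in peroxide, against 5.02 and 5.21 in KCl. HXT5, a hexose transporter gene, read 7.07 and 7.45 in peroxide, against 13.25 and 13.75 in KCl and 6.37 and 5.82 in untreated cells (-6.24 ± 0.50, adjusted p = 0.000351). The hydrophilin genes SIP18 and GRE1 were 44.6-fold and 43.5-fold lower in peroxide, and both read higher at 45 than at 30 min in KCl: GRE1 read 6.44 and 7.01 in peroxide, against 11.29 and 13.05 in KCl and 6.03 and 6.04 in untreated cells. MPC3, a subunit of the mitochondrial pyruvate carrier, was 44.0-fold lower, PHM7 65.0-fold and the proline permease gene PUT4 30.8-fold. PUT4 gave the same difference at both times, -4.94 and -4.95.

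Others among the 15 largest differences downward were not among the glycerol genes above. The kinase gene PRR2 read 6.59 and 6.44 in peroxide, against 12.12 and 11.40 in KCl, and YJL107C, a gene with no known function, read 7.16 and 7.05, against 12.39 and 11.86 in KCl. Their untreated arrays, 6.29 and 6.20 for PRR2 and 6.79 and 6.85 for YJL107C, were close to peroxide. FMP48 read 9.61 and 7.85 in peroxide, against 13.53 and 13.57 in KCl and 8.21 and 8.08 in untreated cells, so its difference widened with time. The galactose permease gene GAL2 ran the other way, at 5.37 and 5.38 in peroxide, against 11.01 and 9.03 in KCl and 5.70 and 5.57 in untreated cells. PRM10 and the stationary phase gene SPG4 were 26.3-fold and 25.2-fold lower in peroxide.

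General stress genes lay above the untreated level in both stresses, further in KCl. Of 43 general stress genes, 39 were lower in peroxide and 0 higher by limma, with a median difference of -1.43. GRE3, HSP12, SPI1, USV1 and YGP1 are also on the list of osmotic effectors, so the results of these lists are not separate. Relative to the untreated mean the medians were 2.12 and 1.85 in peroxide, against 3.75 and 4.20 in KCl. HSP12, a membrane-protecting stress protein gene picked after its values were seen, read 13.02 and 13.83 in peroxide, against 14.65 and 14.74 in KCl and 10.49 and 10.45 in untreated cells (-1.27 ± 0.24, adjusted p = 0.00627). SPI1, for a cell wall protein, read 11.59 and 11.21 in peroxide, against 14.09 and 14.30 in KCl and 9.21 and 9.41 in untreated cells. A larger difference was found for GAC1, which directs a phosphatase to glycogen synthase (8.18-fold lower in peroxide).

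Reserve carbohydrates followed the same order: 18 of 21 trehalose and glycogen genes were lower in peroxide and 0 higher by limma, with a median difference of -1.31. The absence of higher genes did not hold without KCl at 45 min. The 2 lists overlap: GAC1, GPH1, GSY2, PGM2, TPS1, TPS2 and TSL1 belong to both, so their results are not separate. The trehalose phosphatase gene TPS2 read 12.39 and 11.64 in peroxide, against 13.86 and 14.36 in KCl and 10.07 and 9.96 in untreated cells (-2.10 ± 0.30, adjusted p = 0.00220). Glycogen synthase gene GSY1 read 9.81 and 9.53 in peroxide, against 12.61 and 12.41 in KCl and 8.11 and 8.27 in untreated cells (-2.85 ± 0.28, adjusted p = 0.000704). Of 33 chaperone genes, 13 were lower (39.4%) and 4 higher (12.1%) in peroxide; without peroxide at 30 min 7 were lower and 2 higher, and without that at 45 min 2 were higher. The Hsp70 gene SSA4 was 4.88-fold lower and the small heat shock protein gene HSP26, which is also a general stress gene here, 4.66-fold lower.

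Among 40 genes for stress transcription factors, 16 were lower in peroxide (40.0%) and 3 higher (7.50%), and without KCl at 30 min or peroxide at 45 min 9 and 10 were lower; without peroxide at 30 min 1 was higher. MSN2 read 11.13 and 10.88 in peroxide, against 12.17 and 11.95 in KCl and 10.65 and 10.67 in untreated cells (-1.06 ± 0.16, adjusted p = 0.00291). The repressor gene NRG1 was 4.52-fold lower in peroxide. CIN5, of the Yap1 family, was 4.83-fold lower (adjusted p = 0.0147, and 0.0666 without KCl at 30 min). TOD6, a repressor of ribosome biogenesis genes, was higher, with 9.70 and 9.77 in peroxide, against 8.10 and 7.62 in KCl and 11.15 and 11.06 in untreated cells. Its adjusted p of 0.0162 became 0.0655 and 0.0741 without the peroxide arrays at 30 and 45 min, and 0.0753 without KCl at 45 min.

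**Figure D4:**
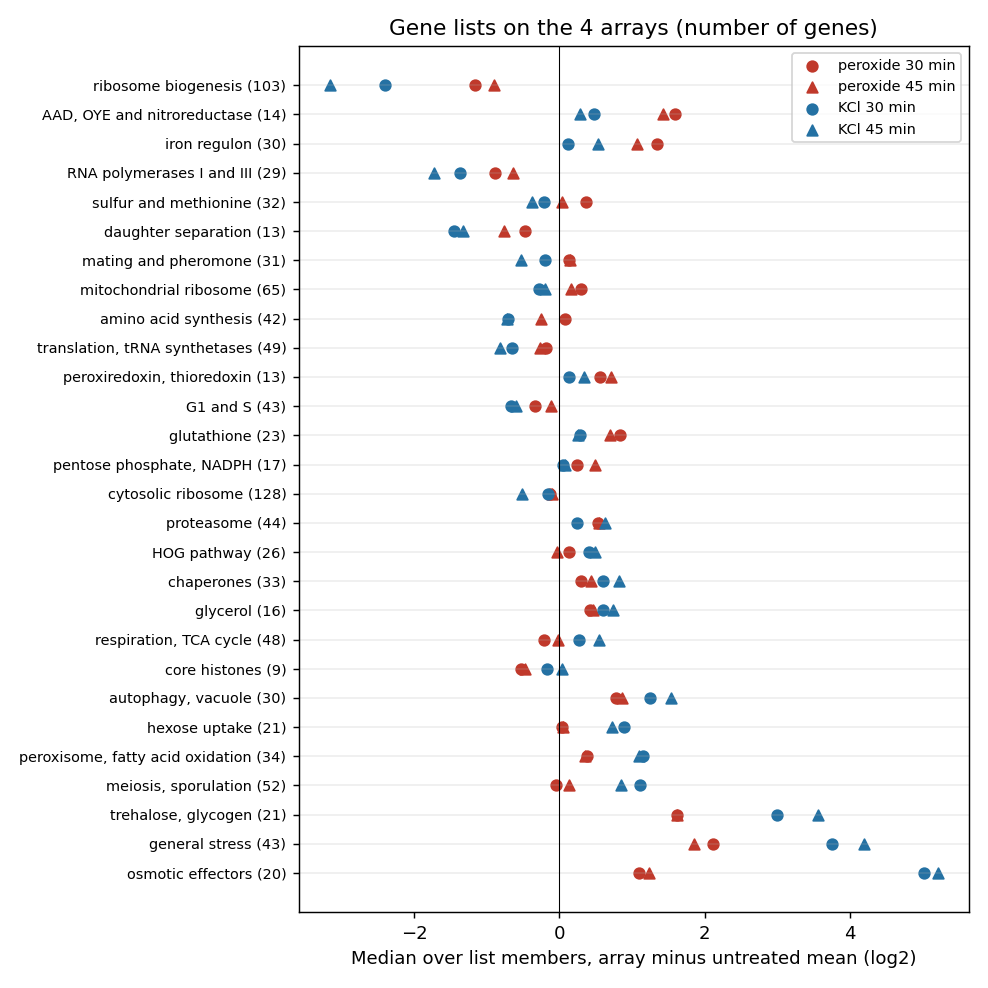
Median over the genes of each list of the level on an array minus the untreated mean (log2): peroxide in red, KCl in blue, circles for 30 min and triangles for 45 min. Lists run from the most positive to the most negative median difference between peroxide and KCl; general stress genes stand at 2.12 and 1.85 in peroxide and 3.75 and 4.20 in KCl, and ribosome biogenesis genes at -1.16 and -0.90 in peroxide and -2.40 and -3.16 in KCl.

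Of 48 respiratory genes, 23 were lower in peroxide (47.9%, against 23.5% of all genes), 2 were higher and 23 did not pass, with a median difference of -0.46. The cytochrome c genes divided. CYC1, for the main form, read 13.00 and 12.22 in peroxide, against 9.54 and 8.44 in KCl and 11.33 and 11.18 in untreated cells, and was 12.3-fold higher in peroxide (3.62 ± 0.43, adjusted p = 0.00117). CYC7, for the second form, read 10.44 and 9.67 in peroxide, against 12.28 and 12.66 in KCl and 6.42 and 6.06 in untreated cells, 5.36-fold lower in peroxide (-2.42 ± 0.40, adjusted p = 0.00350). CYC7 thus lay above the untreated level in both stresses, and CYC1 above it in peroxide and below it in KCl. The cytochrome oxidase subunits COX5A and COX5B, another pair of alternative forms picked after the values were seen, differed by -0.18 ± 0.17 (adjusted p = 0.419) and -1.18 ± 0.16 (adjusted p = 0.00182). The succinate dehydrogenase genes SDH2 and SDH1 were 3.84-fold and 3.51-fold lower in peroxide; SDH2 read 9.39 and 9.99 in peroxide, against 11.46 and 11.80 in KCl and 10.16 and 10.32 in untreated cells.

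Genes of sugar uptake, fatty acid oxidation and meiosis were mostly lower in peroxide. Of 21 hexose genes, 11 were lower (52.4%) and 2 higher, with a median difference of -0.55. The low-affinity transporter gene HXT1 read 11.89 and 11.88 in peroxide, against 13.51 and 14.01 in KCl and 12.28 and 12.21 in untreated cells (-1.88 ± 0.19, adjusted p = 0.000801). Of 34 peroxisomal and fatty acid oxidation genes, 18 were lower (52.9%) and 2 higher, with a median of -0.55, and the thiolase gene POT1 was 7.10-fold lower. Of 52 meiosis and sporulation genes, which mark another cell fate, 32 were lower in peroxide (61.5%) and 3 higher, with a median difference of -0.94. Relative to the untreated mean their medians were -0.05 and 0.13 in peroxide, against 1.10 and 0.85 in KCl.

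The meiotic genes included early and late ones. IME2, the kinase that starts meiosis, read 7.67 and 7.07 in peroxide, against 10.14 and 9.19 in KCl and 6.83 and 6.87 in untreated cells (-2.30 ± 0.36, adjusted p = 0.00315). SPO11, which cuts DNA for recombination, was 5.22-fold lower in peroxide, and the recombinase gene DMC1 5.26-fold. The spore wall gene SPS100 read 6.86 and 7.09 in peroxide, against 11.50 and 12.46 in KCl and 5.99 and 5.79 in untreated cells, and was 32.2-fold lower (-5.01 ± 0.32, adjusted p = 0.000145). SMK1, a kinase of spore formation, was an exception, with 9.62 and 8.40 in peroxide, against 7.46 and 6.96 in KCl and 6.63 and 6.48 in untreated cells (1.80 ± 0.37, adjusted p = 0.00780). The count of higher genes was 1 in place of 3 without either untreated array, either KCl array or peroxide at 45 min.

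Genes of ribosome assembly were mostly higher in peroxide. Of 103 ribosome biogenesis genes, 85 were higher in peroxide (82.5%, against 18.8% of all genes) and 0 lower by limma, with a median difference of 1.87; without peroxide at 45 min 47 were higher. The median grew from 1.24 at 30 min to 2.34 at 45 min. Both stresses lay below the untreated mean, by medians of -1.16 and -0.90 in peroxide, against -2.40 and -3.16 in KCl. Higher in peroxide therefore meant less far below the untreated level. NSR1, a nucleolar protein gene, read 12.23 and 12.38 in peroxide, against 9.21 and 8.08 in KCl and 13.20 and 13.26 in untreated cells (3.66 ± 0.40, adjusted p = 0.000979). SYO1, which carries ribosomal proteins into the nucleus, read 9.51 and 9.72 in peroxide, against 6.73 and 5.35 in KCl and 10.76 and 10.79 in untreated cells (3.58 ± 0.72, adjusted p = 0.00748). NOG1 and RRS1, of large subunit assembly, were 11.7-fold and 11.1-fold higher, and RRP5, of rRNA processing, 9.78-fold.

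**Figure D5:**
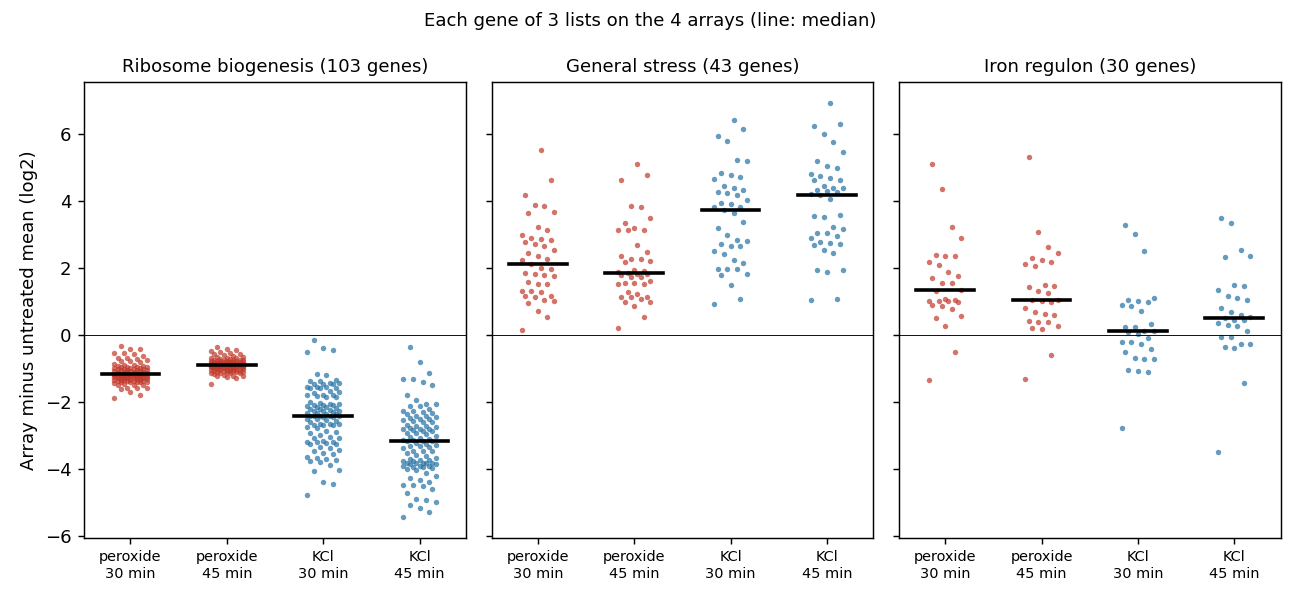
Level of each gene on an array minus the untreated mean (log2, points) for ribosome biogenesis, general stress and iron genes. Values at 30 and 45 min are shown in peroxide (red) and KCl (blue), with black lines at the medians. The peroxide arrays form narrow bands for ribosome biogenesis, with medians of -1.16 and -0.90, against wide ones in KCl, with medians of -2.40 and -3.16.

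Other parts of the translation apparatus had smaller medians. Of 29 genes for RNA polymerases I and III, 14 were higher (48.3%) and 2 lower in peroxide (median difference 0.77), and 7 were higher without peroxide at 45 min. At most 1 was lower with any array but KCl at 45 min left out. RPA190, the largest subunit of polymerase I, differed by 2.31 ± 0.65 (adjusted p = 0.0258), a call lost without either peroxide array (0.0922 and 0.0973) or KCl at 45 min (0.118). Of 128 cytosolic ribosomal protein genes, 11 were higher (8.59%, below the 18.8% of all genes) and 0 lower by limma, with a median difference of 0.20. That count was 6 and 5 without the peroxide arrays at 30 and 45 min, 25 without KCl at 30 min, and 17 without either heat array, which entered the fit only for the spread. RPS9A was 4.09-fold higher. Mitochondrial ribosomal protein genes were higher in 35 of 65 (53.8%) and lower in 0 by limma (1 without either heat array), with a median of 0.50; MRPL37 was 2.39-fold higher, and without the peroxide arrays at 30 and 45 min 14 and 23 genes were higher. The medians of this list were 0.29 and 0.16 above the untreated mean in peroxide, against -0.29 and -0.20 in KCl.

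PHO84 and PHM6, regulated by phosphate, were among the 15 largest differences upward. PHO84, the high-affinity phosphate transporter gene, read 13.70 and 13.94 in peroxide, against 10.11 and 10.91 in KCl and 13.96 and 14.02 in untreated cells (3.31 ± 0.25, adjusted p = 0.000278). PHM6 was 9.82-fold higher. Of 31 mating and pheromone genes, 18 were higher (58.1%) and 3 lower; without peroxide at 30 min 10 were higher and 1 lower, and without that at 45 min 9 were higher. FAR1, which arrests the cell cycle in response to pheromone, read 11.15 and 11.25 in peroxide, against 8.13 and 7.90 in KCl and 11.70 and 11.62 in untreated cells (3.19 ± 0.28, adjusted p = 0.000530). AGA2, an agglutinin subunit gene of a cells, was 4.95-fold higher, and the a-factor gene MFA2 2.98-fold. The marker genes of a cells counted next all belong to the mating and pheromone list as well. Of 7 marker genes of a cells, 6 were higher in peroxide, and 3 without peroxide at 45 min; of 4 markers of alpha cells 1 was higher and 1, below background, lower, a call lost with each untreated, peroxide or KCl array left out in turn. In the opposite direction, PRM8, a pheromone-regulated gene, was 4.47-fold lower in peroxide. The alpha-factor gene MF(ALPHA)2, of the other mating type, read 7.36 and 6.59 in peroxide, against 5.23 and 5.13 in KCl and 5.16 and 5.25 in untreated cells (1.80 ± 0.26, adjusted p = 0.00229).

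The contrast between the stresses changed between 30 and 45 min. Among 5316 genes above background on all 4 arrays, the difference moved by at least 2-fold toward peroxide in 314 and toward KCl in 204. Of all 5449 genes, 1284 had differences of opposite sign at the 2 times. These are values from single arrays, with no test. Toward peroxide the largest moves were in YOL014W, AAH1, TRM11, YTM1 and MST27. AAH1, adenine deaminase, read 11.11 and 11.57 in peroxide, against 9.76 and 7.43 in KCl and 12.95 and 12.95 in untreated cells. TRM11, a tRNA methyltransferase gene, read 9.43 and 9.98 in peroxide, against 8.81 and 6.75 in KCl, and YTM1, of ribosome assembly, 11.05 and 11.34, against 10.10 and 7.84 in KCl. In these 3 genes the KCl array at 45 min stood lowest. MST27 read 6.81 and 7.41 in peroxide, against 10.75 and 8.80 in KCl.

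Toward KCl the largest moves were in RPL41A, CTT1, YAR009C, STR3 and PHR1. CTT1 and STR3 had their highest peroxide level at 30 min, as given with catalases and sulfur genes, with differences of -2.57 and -5.83 for CTT1 and 3.85 and 1.08 for STR3. The photolyase gene PHR1 read 9.16 and 8.21 in peroxide, against 7.65 and 9.41 in KCl and 7.16 and 7.30 in untreated cells. RPL41A, a ribosomal protein gene, read 9.04 and 7.35 in peroxide, against 7.33 and 9.36 in KCl and 9.38 and 7.49 in untreated cells, and YAR009C, of a Ty1 transposon, 10.44 and 9.11, against 8.96 and 10.75 in KCl and 10.60 and 9.56 in untreated cells. The probe sets of both can match related sequences, and a control probe set for 18S rRNA had the same order of arrays within each group: 9.59 and 8.70 in peroxide, 8.17 and 9.46 in KCl, and 10.62 and 8.83 in untreated cells. Its part in these differences was not tested.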

How the data were processed

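RNA from S. cerevisiae was measured on Affymetrix arrays. The authors deposited log2 expression values per probe set, which RMA produced, per the submitters' processing notes; its version is not stated in the sources used here. The authors also deposited log2 fold changes for 5900 probe sets, used as an alternative. Groups follow the labels. The array annotation tied 5498 of 10928 probe sets to a single S. cerevisiae gene; the brightest was kept for 47 genes with several, leaving 5449 genes. Background is the 95th percentile of 4999 probe sets that name no such gene.

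The model was lmFit with a contrast and eBayes (limma 3.58.1, R 4.3.3) on 8 arrays: peroxide, KCl and heat (40 °C) at 30 and 45 min, and untreated cells, with 1 level per group. All groups share 1 estimate of the spread. Benjamini-Hochberg adjustment ran over the 5449 genes with a threshold of 0.05. The number of arrays limits the precision. The fit was tested on simulated data.

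Genes named are the 15 largest differences each way among called genes with arrays that do not overlap, at most 6 called genes per described list, taken by size of difference, members whose own role the text needs, and the 5 largest changes with time each way. Members, lists and rules were chosen with earlier results of these data known. Alternatives covered normalization, centring, dim genes, the variance model, a 2-fold minimum, probe set means, the authors' table, time as a replicate block, the arrays in the fit, and each array left out. Peroxide at 15 and 90 min and the serial stresses were left out, having no KCl array at a matched time.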

Additional observations from a re-analysis of the deposited data

Results flagged for a closer look

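In 4 of the 10 genes named for their change with time, the peroxide array was on one side of the KCl array at 30 min and on the other at 45 min. RPL41A differed by 1.71 at 30 min and by -2.01 at 45 min on the log2 scale, and the Ty1 gene YAR009C by 1.48 and -1.64. Both have large spreads between the untreated arrays, and their values stand above beside the 18S rRNA control. The photolyase gene PHR1 differed by 1.51 at 30 min and by -1.21 at 45 min. YOL014W, with no known function, differed by -1.04 at 30 min and by 1.89 at 45 min; it read 9.45 and 9.61 in peroxide, against 10.49 and 7.72 in KCl and 9.75 and 9.99 in untreated cells. The change between the times was not tested, since each stress and time has 1 array.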

How the results depend on the processing

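The counts of 1024 higher and 1282 lower genes stayed within 1.5 times under quantile normalization (1048 and 1219), one array median (1030 and 1281), another variance model (1035 and 1257), probe set means (1026 and 1282), the authors' table (1047 and 1172), no heat arrays (1051 and 1289), the 4 arrays alone (683 and 914) and all 22 arrays (900 and 1043). With the dimmest 25% of genes left out, which tests fewer genes, the lower count moved further (823) and the higher did not (847). Both counts moved further for differences over 2-fold (67 and 122), which asks for more. With each array left out they ranged from 576 to 1051 higher and from 826 to 1289 lower; where this left 1 array in a group, that array was assumed to vary like the others. The lowest counts of both ranges moved beyond 1.5 times. With time as a replicate block the counts were 951 and 1209 on 8 arrays. On the 4 arrays they were 695 and 849, where the count of lower genes moved beyond 1.5 times. The times are labelled, but the changes from 30 to 45 min in peroxide and KCl had r = -0.204 across genes, and no other pairing was made. The median difference of all genes was -0.026, and -0.004 and -0.023 under the 2 other scalings. No called gene that is named changed sign under any alternative run. In every called gene the peroxide and KCl arrays did not overlap, so leaving out an array could not reverse a sign. Of the 122 named genes that were called, 27 did not pass with all 22 arrays. Single arrays at each time and unknown cultures limit all comparisons.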

Other observations

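Of 40 cell wall genes, 12 were lower (30.0%, against 23.5% of all genes) and 5 higher (12.5%, against 18.8%) in peroxide, and 8 were higher without KCl at 30 min. PIR3, a wall protein gene, read 7.63 and 7.63 in peroxide, against 9.83 and 11.08 in KCl and 6.91 and 7.13 in untreated cells (-2.82 ± 0.35, limma adjusted p = 0.00139). UTR2, which links chitin to glucan, read 12.71 and 12.98 in peroxide, against 10.80 and 10.71 in KCl and 13.21 and 13.24 in untreated cells (2.09 ± 0.14, adjusted p = 0.000169). Of 30 autophagy and vacuole genes, 8 were lower (26.7%, near the 23.5% of all genes) and 0 higher by limma (2 without KCl at 45 min). The count of lower genes was 18 without KCl at 30 min, and 5 and 3 without the peroxide arrays at 30 and 45 min. ATG39, a receptor for autophagy of the nucleus, was 4.93-fold lower in peroxide and ATG14 3.07-fold. Of 44 proteasome genes, 2 were higher and 2 lower, 4.55% each and below the shares of all genes. The higher count was 10 without KCl at 45 min and 0 without either untreated array, either peroxide array or KCl at 30 min. RPN4, the factor that drives proteasome genes, was 2.43-fold lower in peroxide.

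Of 43 genes of G1 and S phase, 15 were higher (34.9%) and 1 lower in peroxide (2 without KCl at 30 min or peroxide at 45 min); 9 were higher without either untreated array and 7 without peroxide at 45 min. NRM1, a repressor of the G1 programme, was 4.12-fold higher, and the cohesin gene SMC3 3.78-fold. RNR1, the large subunit of ribonucleotide reductase, read 12.48 and 12.88 in peroxide, against 10.29 and 10.61 in KCl and 12.69 and 12.49 in untreated cells (adjusted p = 0.00990, and 0.0602 without peroxide at 45 min). Of 36 genes of fatty acid and sterol synthesis, 5 were lower (13.9%) and 2 higher (5.56%) in peroxide, both below the shares of all genes. Without KCl at 30 min 4 were higher, and 3 were lower without that array, either untreated array or peroxide at 30 min. OLE1, the fatty acid desaturase gene, read 9.79 and 9.67 in peroxide, against 11.54 and 11.10 in KCl and 12.82 and 12.92 in untreated cells (-1.59 ± 0.18, adjusted p = 0.00108), so both stresses lay below the untreated level, peroxide by more. IZH4, a membrane protein gene of zinc and sterol balance, read 6.01 and 6.44 in peroxide, against 9.67 and 8.78 in KCl and 9.08 and 9.36 in untreated cells.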
